A study of Homo sapiens with 24 samples.

Results

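Ribosome biogenesis factors are the nucleolar proteins that transcribe, cut, modify and fold ribosomal RNA and join it with ribosomal proteins into the small and large ribosomal subunits. The 38 genes described here were chosen by name from the known assembly factors, and each was read from its highest-mean probe set. A probe set with a single gene symbol measured 34 of the 38. NOP56 and PPAN shared their probe sets with other genes, and GNL3 and DDX18 had no entry in the probe annotation used, so these 4 were not analysed here. The 34 stood among 18274 genes measured. They were brighter than most, with a median of 10.36 for their mean log2 levels against 7.90 for all genes. Shares of all genes given below are not matched for brightness.

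Silymarin, a milk thistle extract, was given to Huh7.5.1 cells, which are a line of human hepatoma origin, and control cultures received DMSO. After 4 h there were 4 arrays labelled silymarin and 4 labelled DMSO, after 8 h 3 and 5, and after 24 h 3 and 5. Every title carries the word novirus, the silymarin dose was not stated, and each of the 24 samples had an Affymetrix Human Gene 1.0 ST array of its own. Whether replicates were grown separately is not stated, so p-values measure only the spread between these samples, which may be technical. The measurement took RNA from whole cultures, in which fewer cells making a transcript and less of it per cell cannot be told apart.

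Ribosome synthesis is among the largest costs of a growing cell. The growth kinase mTORC1 and the transcription factor MYC promote it, and MYC is known to bind E-box sequences in the promoters of many assembly factors. DDIT4 is a stress-induced inhibitor of mTORC1, and its level divided the arrays sharply. It lay between 9.67 and 10.34 on the log2 scale in 10 arrays and between 7.50 and 8.35 in the other 14, with no array between. Both kinds of array occurred in every labelled group, so this division of the arrays crosses the labels. Whether each array received the treatment its label names was not tested, which bears on every difference of silymarin minus DMSO given here. DDIT4 was above 9.0 in 1 of 4 silymarin and 2 of 4 DMSO arrays at 4 h, in 2 of 3 and 3 of 5 at 8 h, and in 1 of 3 and 1 of 5 at 24 h. These sides come from a measured gene and are no groups of the study, so values on them are described without a test.

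Array medians over all probe sets lay between 7.04 and 7.18, and no array was a copy of another. Defining liver transcripts were high, with means of 11.4 to 13.3 for the 11 measured hepatocyte markers such as ALB and APOB, while endothelial markers averaged 5.32 to 6.89 and fibroblast markers 3.38 to 7.77. The 6 immune markers averaged 4.33 to 12.3, with a median of 6.26. Of these, PTPRC and MS4A1 were low at 4.33 and 4.52, and LYZ was high at 12.3. Summed over its 11 genes, the hepatocyte list lay between 136.7 and 137.7 in the arrays with DDIT4 above 9.0. In the others it lay between 135.9 and 137.4, so the ranges overlapped.

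Promoter sequences are shown because they carry a feature the choice of genes did not use. RefSeq windows on GRCh38.p14, from 250 bases before to 50 after the annotated start, were given for 29 of the 34 genes. The E-box CACGTG, which reads the same on both strands, occurred in the windows of 13 of these 29, or 44.8%. Among 92 other ribosome biogenesis genes with a window it occurred in 29, or 31.5%, and among all 14122 measured genes with a window in 10.9%. Its first base lay between positions -64 and 36 relative to the start in the 13 genes. The stretches below hold the E-box, in capitals, with up to 12 bases on each side, for 7 of the 13 genes. They are the motif genes with values given in every array, and WDR43 and BYSL. Like UTP20, these last were lower in the high-DDIT4 arrays in all 6 labelled groups.
UTP20 (chr12:101280083-101280112, plus strand): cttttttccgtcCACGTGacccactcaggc
WDR43 (chr2:28894658-28894687, plus strand): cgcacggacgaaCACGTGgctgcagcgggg
BYSL (chr6:41921515-41921544, plus strand): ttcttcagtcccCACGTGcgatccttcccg
RRP9 (chr3:51941892-51941921, minus strand): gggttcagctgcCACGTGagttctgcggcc
DDX21 (chr10:68956604-68956633, plus strand): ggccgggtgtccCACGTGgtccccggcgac
LYAR (chr4:4290068-4290097, minus strand): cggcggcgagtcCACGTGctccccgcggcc
PES1 (chr22:30591880-30591909, minus strand): tccttggcagggCACGTGcgggaggaagtg
A match describes the letters of the window and is not a measured binding site.

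The genes varied together over the 24 arrays, by small amounts. Their median SD over the arrays was 0.11 on the log2 scale, against 0.13 for all genes, and within labelled groups the medians were 0.11 and 0.12. The first principal component held 52.2% of the variance of the 34 standardised genes, 36.4% for the 107 other ribosome biogenesis genes and 19.9% for all genes. Lists of different length are compared here, and a shorter list can give a larger share. After the group means were removed, the component still held 47.0% for the 34 genes and 19.4% for all genes. Within the arrays with DDIT4 above 9.0 the shares were 41.7% and 29.9%, and within those below 9.0 they were 53.0% and 23.4%.

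The arrays at the ends of this joint variation were few. DMSO replicate 4 at 8 h held the lowest value of all 24 arrays for 15 of the 34 genes, and it had 0 genes above their own median. Silymarin replicate 3 at 24 h held the highest value for 13 genes, and silymarin replicate 3 at 4 h for 7. In those arrays 32 and 33 of the 34 genes were above their own median. Medians over all probe sets were 7.15 in DMSO replicate 4 at 8 h and 7.07 and 7.06 in these silymarin arrays. The highest array median, 7.18 in DMSO replicate 3 at 8 h, went with 13 genes above their own median. The lowest, 7.04 in DMSO replicate 3 at 24 h, went with 17. Any part of such array differences in the joint variation was not tested. The mean of the 34 log2 values was 10.25, 10.43, 10.51 and 10.44 in silymarin at 4 h, against 10.37, 10.43, 10.33 and 10.31 in DMSO. At 8 h the means were 10.33, 10.40 and 10.30 in silymarin, against 10.25, 10.31, 10.34, 10.16 and 10.30 in DMSO. At 24 h they were 10.33, 10.41 and 10.54 in silymarin, against 10.27, 10.42, 10.33, 10.39 and 10.33 in DMSO. The labelled groups overlapped at each time point.

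**Figure D1:**
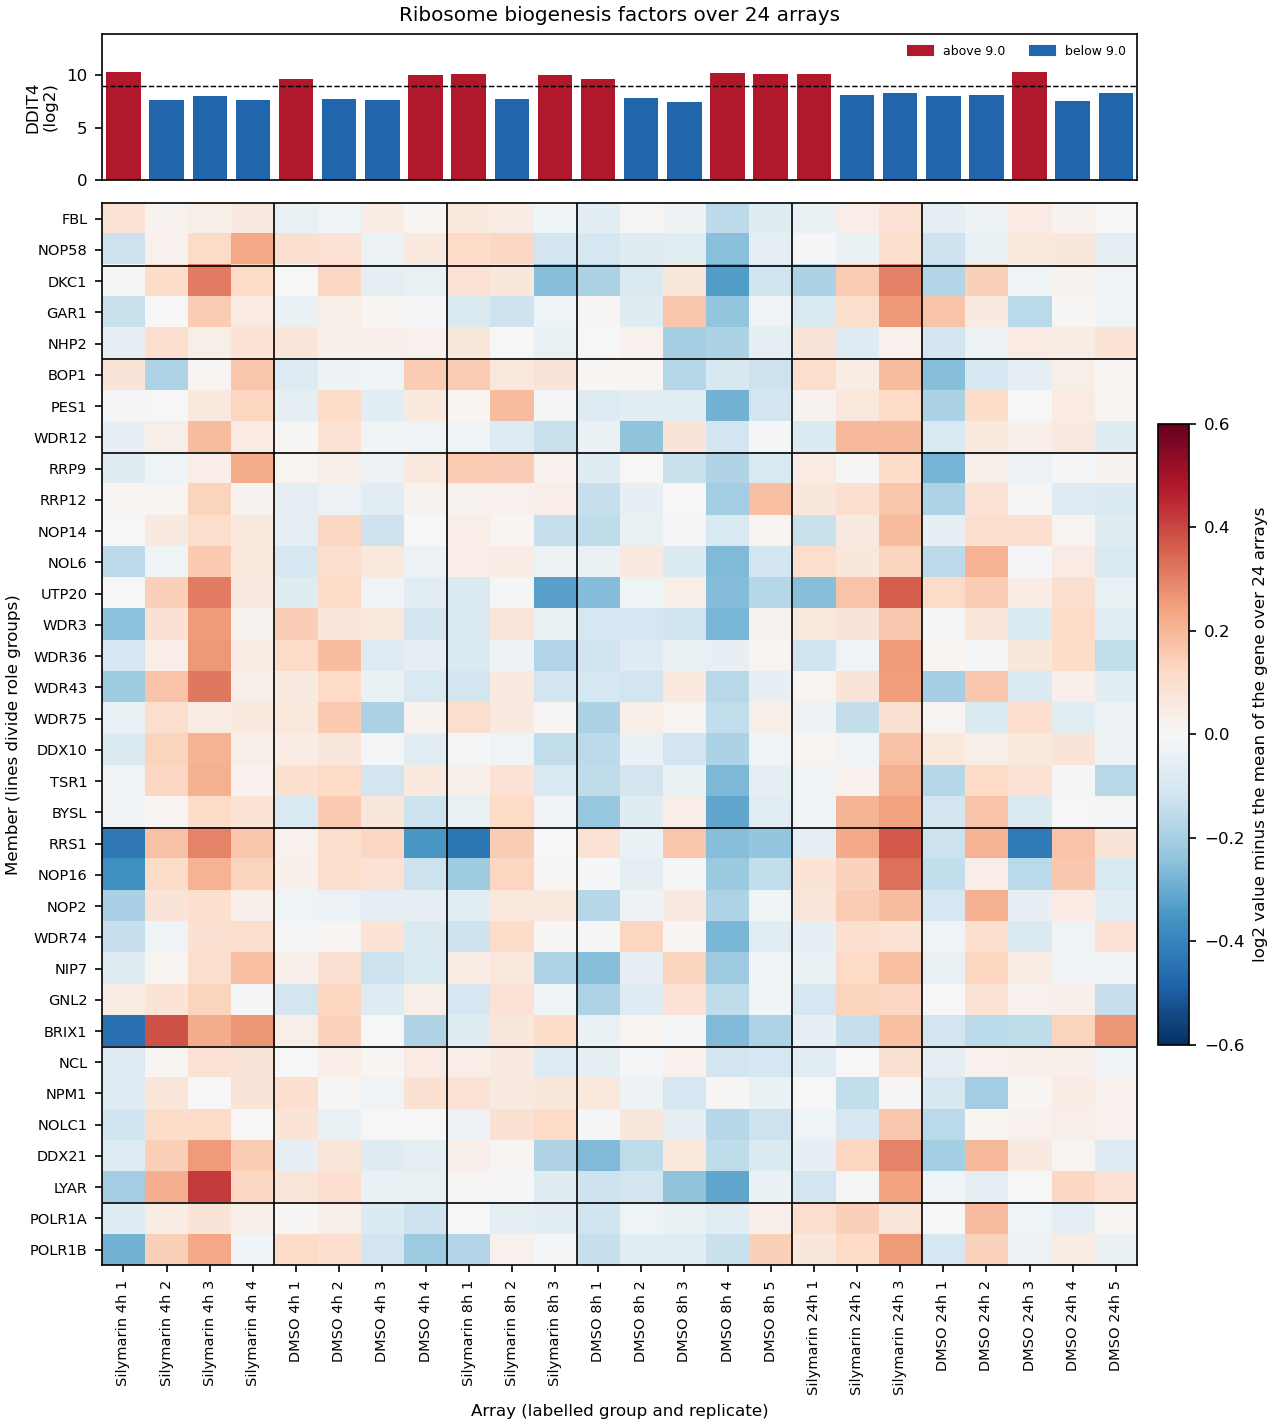
The heat map shows the log2 value of each of the 34 genes minus its own mean over 24 arrays, with arrays as columns by labelled group and genes as rows by role, and the bars above give DDIT4 on the log2 scale with a dashed line at 9.0. DMSO replicate 4 at 8 h is blue for nearly all genes, and silymarin replicate 3 at 4 h and at 24 h is red for nearly all genes.

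Arrays with high DDIT4 had lower levels of most assembly factors. The median over the 10 arrays with DDIT4 above 9.0 was below the median over the 14 other arrays for 31 of 34 genes, against 54.7% of all genes. The median of these differences was -0.09 on the log2 scale, against -0.01 for all genes. The mean of the 34 genes had its lowest, median and highest values at 10.16, 10.31 and 10.37 in the arrays with DDIT4 above 9.0, and at 10.27, 10.41 and 10.54 in those below. Of the 34 genes, between 0 and 19 per array (median 10) were above their own median when DDIT4 was high, and between 4 and 33 (median 26.5) when it was low. The sides overlapped for every gene. In 0 of 34 genes did all high-DDIT4 arrays lie below all others, a pattern found in 0.361% of all genes, and in 0 did they all lie above, which 0.607% of all genes did.

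Because both sides occurred in all 6 labelled groups, the difference could be read inside each group. At 4 h the mean of the high-DDIT4 arrays was lower for 32 of 34 genes in silymarin, where 47.6% of all genes were lower, and for 23 in DMSO, where 50.4% were. At 8 h it was lower for 26 genes in silymarin and for 27 in DMSO, against 54.1% and 57.2% of all genes. At 24 h it was lower for 31 genes in silymarin, against 54.6% of all genes, and for 15 genes in DMSO, or 44.1%, which is below the 57.7% of all genes. The counts in silymarin at 4 h, silymarin at 24 h and DMSO at 24 h rest on 1 high-DDIT4 array each. That in silymarin at 8 h rests on 1 low-DDIT4 array. Median differences over the genes ran from -0.18 in silymarin at 4 h to 0.02 in DMSO at 24 h. In 9 of the 34 genes, or 26.5%, the high-DDIT4 arrays were lower in all 6 groups, against 9.82% of all genes. These were DKC1, UTP20, WDR3, WDR43, BYSL, RRS1, NOP16, WDR74 and BRIX1. None of the 34 was higher in all 6 groups, against 9.19% of all genes.

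**Figure D2:**
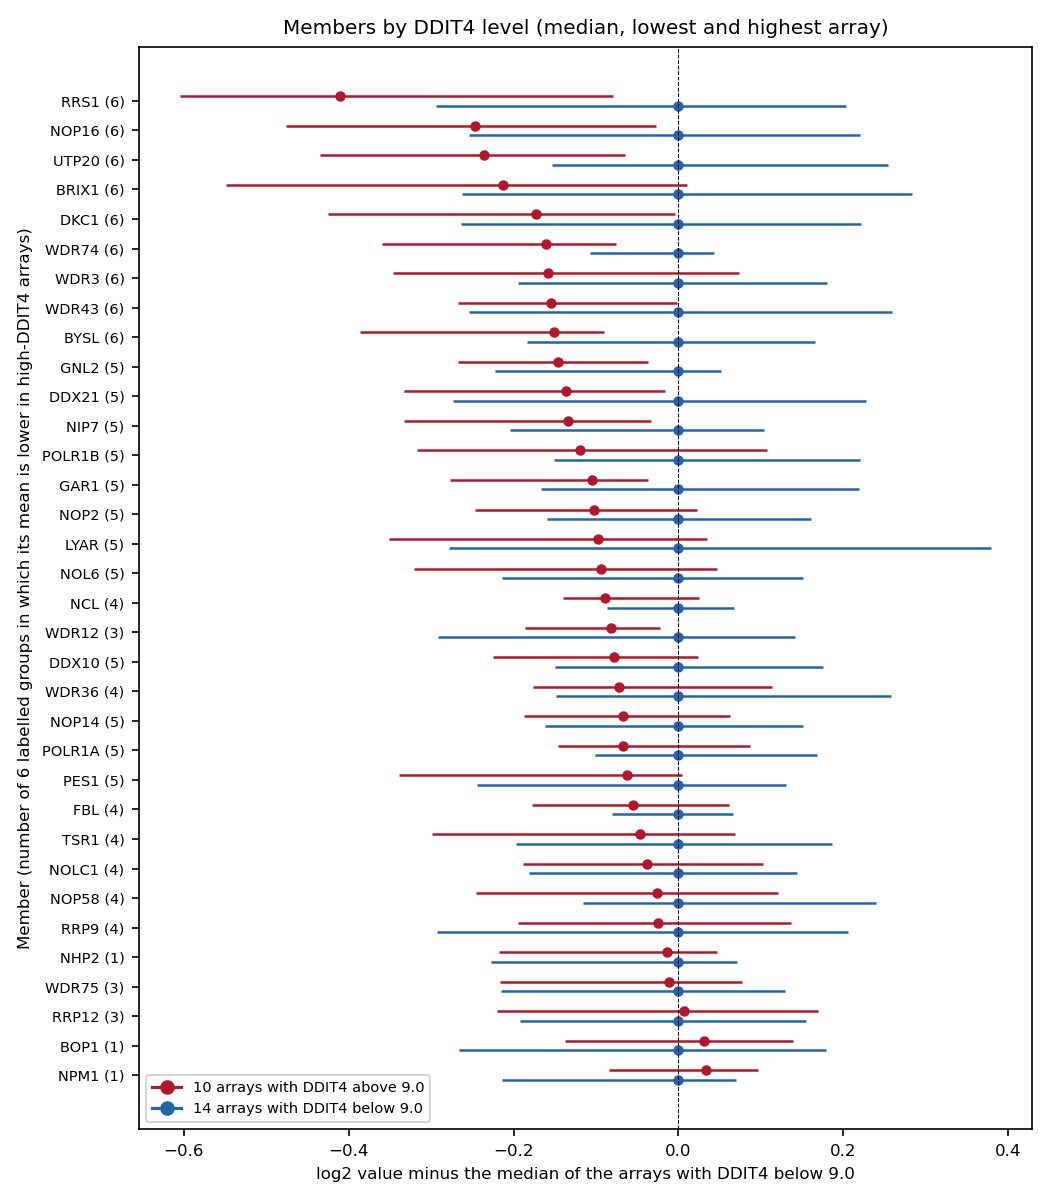
Each row is a gene, with the median as a point and the lowest and highest array as a line, on the log2 scale relative to the median of the 14 arrays with DDIT4 below 9.0. The number beside a gene counts the labelled groups, of 6, in which its mean is lower in the high-DDIT4 arrays. RRS1, NOP16 and UTP20 lie farthest to the left, and the lines of the 10 high-DDIT4 arrays and the 14 others overlap for each gene.

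The same split was read at single time points, where fewer arrays make a full separation more common. At 4 h, 5 of the 34 genes had all 3 high-DDIT4 arrays below all 5 others, a pattern of 4.28% of all genes. These were GAR1, NOL6, BYSL, RRS1 and NOP16. At 8 h, UTP20 and WDR74 had all 5 high-DDIT4 arrays below the other 3, against 5.88% of all genes. At 24 h, GAR1 and WDR74 had both high-DDIT4 arrays below the other 6, against 8.32% of all genes. No member lay wholly above at any time point, against 4.28%, 5.95% and 7.03% of all genes at 4, 8 and 24 h. The counts of 2 at 8 h and at 24 h, and of 5 at 4 h, are read against those shares and not as separate evidence.

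Factors of the large subunit had the most negative median difference of the 7 role groups, which count the PeBoW complex apart. All 7 measured had the lower median in the high-DDIT4 arrays, with a median difference of -0.16. Of the 7, 4 were lower in all 6 groups. Among the other ribosome biogenesis genes the order was the reverse, with -0.06 for 39 large subunit and -0.10 for 39 small subunit factors. Of those, 9 and 14 were lower in all 6 groups. RRS1 helps bring the 5S ribosomal RNA particle into the early large subunit and had the widest spread of the 34 genes, an SD of 0.24 that exceeded that of 94.4% of all genes. The 4 h values of RRS1 were 9.64, 10.24, 10.36 and 10.23 in silymarin, against 10.09, 10.17, 10.19 and 9.72 in DMSO. By 8 h, silymarin arrays read 9.63, 10.22 and 10.07, against 10.15, 10.02, 10.23, 9.81 and 9.84 in DMSO. The 24 h arrays read 10.01, 10.29 and 10.44 in silymarin, against 9.94, 10.28, 9.64, 10.24 and 10.14 in DMSO. Of the high-DDIT4 arrays, 6 lay between 9.63 and 9.84, namely silymarin replicate 1 at 4 h and at 8 h, DMSO replicate 4 at 4 h and at 8 h, DMSO replicate 5 at 8 h and DMSO replicate 3 at 24 h. The 4 other high-DDIT4 arrays lay between 10.01 and 10.15, inside the range of the low-DDIT4 arrays, which was 9.94 to 10.44. RRS1 differed by -0.41 between the medians of the high-DDIT4 and the other arrays, the most negative value of the 34.

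NOP16, a nucleolar factor of the large subunit, followed with -0.25. In silymarin at 4 h NOP16 stood at 8.45, 8.92, 9.02 and 8.95, against 8.85, 8.92, 8.90 and 8.68 in DMSO. In silymarin at 8 h it stood at 8.60, 8.94 and 8.82, against 8.80, 8.76, 8.80, 8.59 and 8.67 in DMSO. In silymarin at 24 h it stood at 8.89, 8.95 and 9.14, against 8.67, 8.85, 8.65, 8.98 and 8.72 in DMSO. Silymarin replicate 1 at 4 h was the lowest of the 24 arrays and silymarin replicate 3 at 24 h the highest. BRIX1, an RNA-binding factor of early large subunits, differed by -0.21, and its high-DDIT4 arrays ran from 10.27 to 10.83 against 10.55 to 11.10 in the others. WDR74, which acts with a remodelling ATPase in large subunit maturation, differed by -0.16 with 11.18 to 11.46 in the high-DDIT4 arrays and 11.43 to 11.58 in the others, so that only the ends of the ranges met. NOP2, a methyltransferase of large subunit RNA, GNL2, a GTPase, and NIP7 differed by -0.10, -0.15 and -0.13.

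Small subunit factors held members at both ends of the range. Of the 12 measured, 11 had the lower median in the high-DDIT4 arrays, with a median difference of -0.08, and 4 were lower in all 6 groups. UTP20, a scaffold of the processome that assembles on the nascent transcript, differed by -0.24. After 4 h, UTP20 measured 10.46, 10.60, 10.77 and 10.51 in silymarin, against 10.38, 10.57, 10.44 and 10.39 in DMSO. Its 8 h values were 10.37, 10.45 and 10.13 in silymarin, against 10.20, 10.43, 10.49, 10.20 and 10.29 in DMSO. Those at 24 h were 10.20, 10.63 and 10.82 in silymarin, against 10.57, 10.61, 10.50, 10.56 and 10.41 in DMSO. All 5 high-DDIT4 arrays at 8 h lay at or below 10.37, and the other 3 lay at or above 10.43. A separation in this direction at 8 h was found in 5.88% of all genes. WDR3, WDR43 and BYSL, which act in the processome or in later small subunit steps, differed by -0.16, -0.15 and -0.15. NOL6, DDX10, WDR36 and NOP14 differed by -0.09, -0.08, -0.07 and -0.07, and TSR1 and WDR75 by -0.05 and -0.01. RRP12, a factor of small subunit maturation, differed by 0.01 (-0.001 without DMSO replicate 1 at 24 h), and RRP9, which binds the U3 guide RNA, by -0.02. The 4 h values of RRP12 were 9.80, 9.81, 9.92 and 9.81 in silymarin, against 9.73, 9.75, 9.72 and 9.81 in DMSO. By 8 h, silymarin arrays read 9.81, 9.82 and 9.83, against 9.65, 9.74, 9.79, 9.58 and 9.97 in DMSO. The 24 h arrays read 9.86, 9.89 and 9.95 in silymarin, against 9.61, 9.87, 9.80, 9.71 and 9.71 in DMSO. The lowest and the highest of these RRP12 values both came from high-DDIT4 arrays of the same group, DMSO replicates 4 and 5 at 8 h.

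All 5 measured proteins of the particles that modify ribosomal RNA with guide RNAs had a lower median in the high-DDIT4 arrays, by amounts from -0.17 to -0.01. FBL, the methyltransferase of the box C/D particles, varied little, with an SD of 0.06 that exceeded that of 1.34% of all genes, and differed by -0.06. Its partner NOP58 differed by -0.03. In silymarin at 4 h NOP58 stood at 11.07, 11.22, 11.32 and 11.43, against 11.30, 11.29, 11.16 and 11.26 in DMSO. In silymarin at 8 h it stood at 11.31, 11.33 and 11.09, against 11.10, 11.13, 11.14, 10.95 and 11.14 in DMSO. In silymarin at 24 h it stood at 11.19, 11.16 and 11.31, against 11.08, 11.16, 11.26, 11.27 and 11.15 in DMSO. The lowest value was again that of DMSO replicate 4 at 8 h. DKC1, the pseudouridine synthase of the box H/ACA particles, differed by -0.17 and was lower in all 6 groups, GAR1 by -0.11 and NHP2 by -0.01. NHP2 was higher in the high-DDIT4 arrays in 5 of the 6 groups, and its further probe set differed by 0.05, in the opposite direction. After 4 h, DKC1 measured 9.99, 10.11, 10.31 and 10.12 in silymarin, against 9.996, 10.12, 9.94 and 9.95 in DMSO. Its 8 h values were 10.08, 10.07 and 9.74 in silymarin, against 9.80, 9.91, 10.06, 9.66 and 9.88 in DMSO. Those at 24 h were 9.80, 10.15 and 10.30 in silymarin, against 9.82, 10.14, 9.97, 10.02 and 9.97 in DMSO. The DKC1 values of the 2 sides overlapped between 9.82 and 10.08.

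The PeBoW complex, made of PES1, BOP1 and WDR12, is needed for maturation of the large subunit RNAs. On the probe sets kept, 2 of its 3 genes had the lower median in the high-DDIT4 arrays. PES1 differed by -0.06 and WDR12 by -0.08 between high-DDIT4 and other arrays, and BOP1 by 0.03. The 4 h values of BOP1 were 9.48, 9.22, 9.42 and 9.57 in silymarin, against 9.33, 9.38, 9.38 and 9.56 in DMSO. By 8 h, silymarin arrays read 9.56, 9.47 and 9.48, against 9.42, 9.42, 9.24, 9.31 and 9.28 in DMSO. The 24 h arrays read 9.51, 9.45 and 9.60 in silymarin, against 9.15, 9.30, 9.36, 9.44 and 9.42 in DMSO. BOP1 had a further probe set, on which the same difference was -0.07, so that the 2 probe sets disagreed in sign. Without DMSO replicate 4 at 4 h the first gave -0.002. In silymarin at 4 h PES1 stood at 9.59, 9.60, 9.67 and 9.73, against 9.55, 9.71, 9.54 and 9.66 in DMSO. In silymarin at 8 h it stood at 9.62, 9.79 and 9.60, against 9.53, 9.54, 9.53, 9.32 and 9.49 in DMSO. In silymarin at 24 h it stood at 9.63, 9.67 and 9.72, against 9.41, 9.71, 9.61, 9.65 and 9.62 in DMSO. PES1 was lowest in DMSO replicate 4 at 8 h and highest in silymarin replicate 2 at 8 h.

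Among the abundant nucleolar proteins, nucleolin, NCL, had one of the smallest spreads, an SD of 0.06, and differed by -0.09. The histone chaperone nucleophosmin, NPM1, differed by 0.03, the most positive value of the 34, and its median was among only 3 above 0, beside BOP1 and RRP12. After 4 h, NPM1 measured 12.58, 12.74, 12.67 and 12.74 in silymarin, against 12.76, 12.67, 12.64 and 12.76 in DMSO. Its 8 h values were 12.75, 12.72 and 12.73 in silymarin, against 12.73, 12.63, 12.56, 12.67 and 12.62 in DMSO. Those at 24 h were 12.66, 12.51 and 12.67 in silymarin, against 12.56, 12.45, 12.68, 12.71 and 12.69 in DMSO. NPM1 had 4 probe sets, of which the 3 bright ones differed by 0.03 to 0.04 and the dim one, with a mean of 5.79, by -0.13. DDX21, an RNA helicase that links RNA polymerase I and II transcription to RNA processing, differed by -0.14. The 4 h values of DDX21 were 10.64, 10.85, 10.97 and 10.86 in silymarin, against 10.66, 10.79, 10.64 and 10.65 in DMSO. By 8 h, silymarin arrays read 10.74, 10.73 and 10.53, against 10.45, 10.56, 10.78, 10.56 and 10.63 in DMSO. The 24 h arrays read 10.66, 10.84 and 11.01 in silymarin, against 10.51, 10.91, 10.76, 10.73 and 10.63 in DMSO. LYAR, a zinc finger protein of the nucleolus, differed by -0.10, and the phosphoprotein NOLC1 by -0.04. In silymarin at 4 h LYAR stood at 9.22, 9.65, 9.85 and 9.55, against 9.51, 9.53, 9.39 and 9.39 in DMSO. In silymarin at 8 h it stood at 9.44, 9.42 and 9.36, against 9.30, 9.32, 9.19, 9.12 and 9.39 in DMSO. In silymarin at 24 h it stood at 9.32, 9.42 and 9.67, against 9.41, 9.38, 9.43, 9.55 and 9.52 in DMSO. Silymarin replicate 3 at 4 h was the highest LYAR array and DMSO replicate 4 at 8 h the lowest.

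Both measured catalytic subunits of RNA polymerase I, which transcribes the large ribosomal RNA precursor, were lower at the median when DDIT4 was high. POLR1A differed by -0.07 and POLR1B by -0.12. After 4 h, POLR1B measured 10.03, 10.45, 10.54 and 10.29 in silymarin, against 10.42, 10.41, 10.19 and 10.09 in DMSO. Its 8 h values were 10.13, 10.34 and 10.30 in silymarin, against 10.17, 10.24, 10.25, 10.18 and 10.45 in DMSO. Those at 24 h were 10.38, 10.43 and 10.57 in silymarin, against 10.21, 10.45, 10.27, 10.35 and 10.27 in DMSO. POLR1B was lowest in silymarin replicate 1 at 4 h and highest in silymarin replicate 3 at 24 h.

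The other genes of ribosome biogenesis, 107 measured of 112 listed, were read the same way. Of these, 83, or 77.6%, had the lower median in the high-DDIT4 arrays, with a median difference of -0.07, and 28, or 26.2%, were lower in all 6 groups while 2 were higher in all 6. Of the 107, 4 had all 10 high-DDIT4 arrays below all 14 others, a pattern of 0.361% of all genes and of 0 of the 34. These were KRR1, DDX52 and ABT1, factors of the small subunit, and GNL3L, a nucleolar GTPase. DDX52 had its lowest, median and highest values at 11.19, 11.22 and 11.29 in the high-DDIT4 arrays, and at 11.30, 11.40 and 11.45 in the others. The largest differences were -0.40 for the exosome subunit EXOSC9, -0.36 for UTP18 and -0.31 for FTSJ3, a methyltransferase of ribosomal RNA processing. In the other direction, NOP53 differed by 0.27, RSL24D1 by 0.16 and the kinase RIOK2 by 0.14. NOP53, a large subunit factor that recruits the exosome, lay between 10.53 and 11.02 in the high-DDIT4 arrays and between 10.32 and 10.60 in the others.

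MYC was set beside these genes because they are known to include many of its targets. It did not share their direction. MYC had its lowest, median and highest values at 10.60, 10.93 and 11.08 in the arrays with DDIT4 above 9.0, and at 9.83, 10.31 and 10.67 in those below, a difference of medians of 0.61, and it was higher in all 6 labelled groups. Stress genes of the ATF4 pathway, which responds to shortage of amino acids and to other stress, had the higher median with high DDIT4 in 8 of 8. Of all genes, 54.7% had the lower median. DDIT4 is itself stress-induced, so this count is not independent of the split. The part of the stress genes in the lower levels of assembly factors was not tested.

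Within the 14 arrays with DDIT4 below 9.0, MYC and the assembly factors ran in parallel, a relation noticed in the data and given as a description. The mean of the 34 genes had a Pearson correlation of 0.106 with MYC over the 10 high-DDIT4 arrays and of 0.877 over the 14 others, with Spearman values of 0.236 and 0.767. Leaving out the 2 arrays farthest from the median of MYC gave Pearson values of 0.594 over 8 and 0.763 over 12 arrays, so the value on the high-DDIT4 side rested on 2 arrays, DMSO replicate 1 at 4 h and at 8 h. No correlation is given over all 24 arrays, since they fall into separate clusters, and every pair of values shares an array and its normalization. The 14 arrays pool both labels and all times. Their median MYC was 10.41 in silymarin and 10.25 in DMSO, and the median of the 34-gene mean was 10.43 and 10.33. Label and MYC were therefore not separated in these correlations. Over the 14 arrays, 25 of 34 genes had a correlation above 0.5, as did 10.6% of all genes. All 34 were above 0, a cut for which no share of all genes is given. The median was 0.656 for the 34 genes, 0.488 for the 107 other ribosome biogenesis genes and -0.018 for all genes. Over the 10 high-DDIT4 arrays, 22 of 34 genes were above 0. Only 2 were above 0.5 there, as were 8.499% of all genes. The medians on that side were 0.113 for the 34 genes and -0.032 for all genes. RRS1 had the highest value of the 34 over the 14 arrays, 0.952, and had -0.588 over the 10 high-DDIT4 arrays. WDR43 with 0.907 and DKC1 with 0.884 came next, and WDR75 with 0.093 and NPM1 with 0.146 were lowest.

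**Figure D3:**
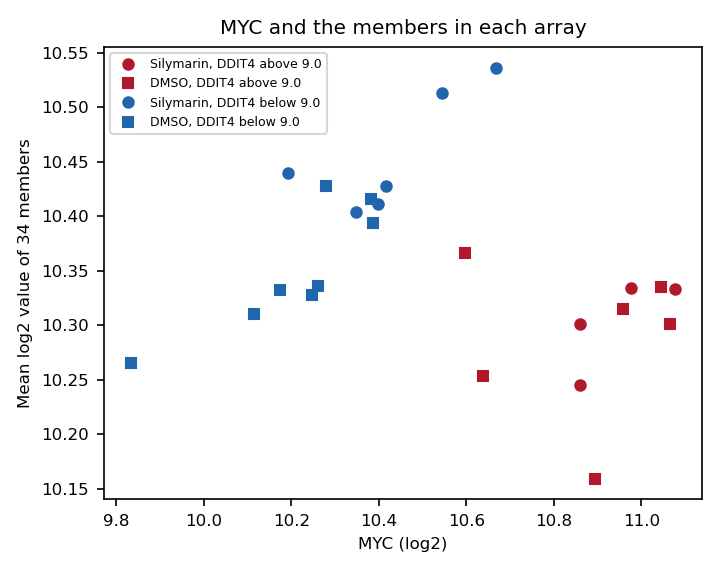
Each point is an array, with MYC on the horizontal axis and the mean of the 34 genes on the vertical axis, both on the log2 scale, coloured by DDIT4 and shaped by label. The 14 arrays with DDIT4 below 9.0 form a rising band from 9.83 to 10.67 on the MYC axis, and the 10 others lie mostly to the right of it and below it.

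Genes with and without an E-box in the promoter window were also set side by side. The median difference between high-DDIT4 and other arrays was -0.10 for the 13 genes with the motif, whose stretches are shown above for 7, and -0.09 for the 16 without it. Lower values in all 6 groups were found for 3 of the 13 and for 5 of the 16.

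The labelled comparison asked how silymarin affected these genes at each time. At 4 h, 31 of 34 genes had a positive difference of silymarin minus DMSO, against 47.5% of all genes, with a median of 0.04 against -0.01. The median was 0.01 without silymarin replicate 3. None of the 34 passed limma's test at an adjusted p under 0.05, the share of all genes that passed being 0%, and the smallest adjusted p of the 34 was 0.99993. At an unadjusted p under 0.05 there were 0 of 34 genes and 2.48% of all genes. The genes with the smallest p were DDX21, UTP20 and DKC1. DDX21 averaged 10.83 ± 0.14 in silymarin and 10.68 ± 0.07 in DMSO (SD, n = 4 each), a difference of 0.15 (95% confidence interval -0.04 to 0.33). UTP20 differed by 0.14 (-0.08 to 0.35) and DKC1 by 0.13 (-0.08 to 0.34). Without silymarin replicate 3 these 3 differences were 0.10, 0.08 and 0.07, and that array had the highest values of all 3 genes at 4 h. No gene of the 34 had its silymarin arrays all above the DMSO arrays, which 0.629% of all genes had, or all below, which 1.55% had.

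At 8 h, 28 of 34 genes had a positive difference, against 42.0% of all genes, with a median of 0.08 against -0.02. None passed limma, as for 0% of all genes, with a smallest adjusted p of 0.991, and 3 of 34 had an unadjusted p under 0.05 against 3.93% of all genes. These 3, RRP9, PES1 and BOP1, were also the only members whose 3 silymarin arrays all lay above the 5 DMSO arrays, a pattern of 0.947% of all genes, and no member lay wholly below, against 1.99%. RRP9 was 10.21, 10.21 and 10.09 in silymarin, against 9.99, 10.06, 9.93, 9.88 and 9.97 in DMSO, so that these groups did not overlap. They did overlap at 4 h, with 9.99, 10.04, 10.10 and 10.28 in silymarin, against 10.08, 10.10, 10.02 and 10.12 in DMSO. The same held at 24 h, with 10.11, 10.07 and 10.17 in silymarin, against 9.78, 10.09, 10.02, 10.05 and 10.08 in DMSO. The 8 h means of RRP9 were 10.17 ± 0.07 in silymarin (SD, n = 3) and 9.97 ± 0.07 in DMSO (SD, n = 5), a difference of 0.20 (95% confidence interval 0.05 to 0.35). PES1 differed by 0.18 (0.04 to 0.33), or by 0.12 without silymarin replicate 2, and BOP1 by 0.17 (0.01 to 0.33). On its further probe set BOP1 differed by 0.12.

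At 24 h, 32 of 34 genes had a positive difference, against 56.0% of all genes, with a median of 0.08 against 0.01. The median was 0.02 without silymarin replicate 3. None passed limma, as for 0% of all genes, with a smallest adjusted p of 0.99971, and 2 of 34 had an unadjusted p under 0.05 against 3.03% of all genes. BOP1 was the 1 member with its 3 silymarin arrays all above the 5 DMSO arrays, against 1.18% of all genes, and 0 lay wholly below, against 0.772%. BOP1 averaged 9.52 ± 0.07 in silymarin (SD, n = 3) and 9.33 ± 0.12 in DMSO (SD, n = 5), a difference of 0.19 (95% confidence interval 0.02 to 0.35), or 0.10 on its further probe set. RRP12 differed by 0.16 (0.01 to 0.31). NOP16 differed by 0.22 (-0.004 to 0.45), or by 0.15 without silymarin replicate 3.

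**Figure D4:**
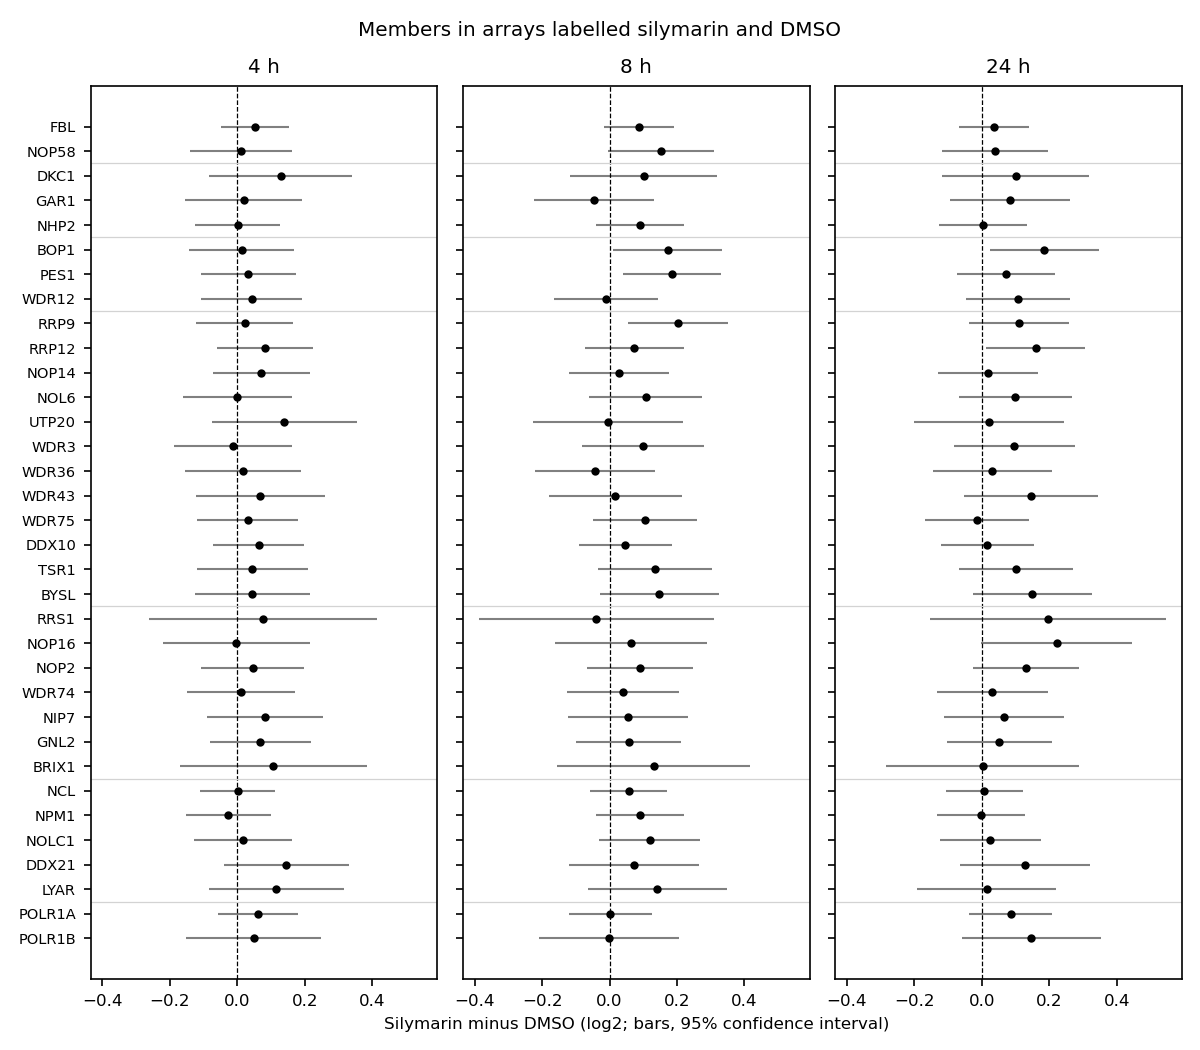
Points give the difference of silymarin minus DMSO on the log2 scale for each of the 34 genes at 4, 8 and 24 h, and bars give the 95% confidence interval of limma's moderated fit before adjustment. Most points lie to the right of 0 at each time point, and all intervals but those of RRP9, PES1 and BOP1 at 8 h and BOP1 and RRP12 at 24 h include 0.

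By role, the positive differences were spread over all groups. Small subunit factors had 11, 10 and 11 of 12 genes above 0 at 4, 8 and 24 h, and large subunit factors 6, 6 and 7 of 7. The 3 PeBoW genes had 3, 2 and 3 above 0, with the largest median at 8 h, 0.17. The 107 other ribosome biogenesis genes had 78, 84 and 78 above 0, with medians of 0.04, 0.05 and 0.04, and limma called 0 of them at each time point. Those with the smallest p were TAF1B, MPHOSPH10 and RRN3 at 4 h, with differences of 0.17, 0.17 and 0.15. At 8 h they were EXOSC5 and NOC2L at 0.23 and 0.17 and the remodelling ATPase MDN1 at -0.20, and at 24 h EXOSC7, NLE1 and IMP3 at 0.19, 0.19 and 0.13.

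The uneven share of high-DDIT4 arrays was set beside these differences by reading each side alone. Among arrays with DDIT4 below 9.0, the median difference of silymarin minus DMSO over the 34 genes was 0.08 at 4 h (3 arrays against 2), 0.07 at 8 h (1 against 2) and 0.13 at 24 h (2 against 4), with 32, 31 and 31 genes above 0, where 46.0%, 45.3% and 56.2% of all genes were above 0. Among arrays with DDIT4 above 9.0 it was -0.09 at 4 h (1 against 2), 0.09 at 8 h (2 against 3) and 0.005 at 24 h (1 against 1), with 8, 29 and 17 genes above 0, where 50.8%, 45.1% and 53.3% of all genes were above 0. Over all times, the mean of the 34 genes in high-DDIT4 arrays lay between 10.25 and 10.33 in the 4 labelled silymarin and between 10.16 and 10.37 in the 6 labelled DMSO, so that silymarin lay inside the DMSO range. In low-DDIT4 arrays it lay between 10.40 and 10.54 in the 6 labelled silymarin and between 10.27 and 10.43 in the 8 labelled DMSO. MYC in the same low-DDIT4 arrays lay between 10.19 and 10.67 in silymarin and between 9.83 and 10.39 in DMSO, and its part in that difference was not tested.

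**Figure D5:**
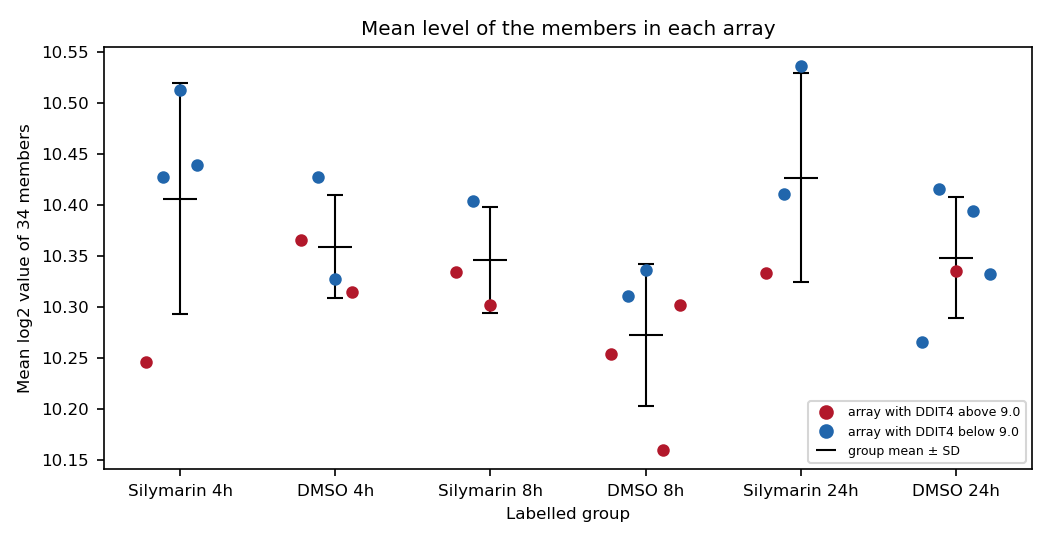
Points give the mean log2 value of the 34 genes in each array by labelled group, coloured by DDIT4, with the group mean and SD in black (n = 4, 4, 3, 5, 3 and 5 from left to right). The axis does not start at 0. The lowest array is DMSO replicate 4 at 8 h at 10.16 and the highest is silymarin replicate 3 at 24 h at 10.54.

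The time course itself was compared last. Against DMSO at 4 h, DMSO at 8 h had 1 of 34 genes above 0, against 53.5% of all genes, and a median difference of -0.08. None passed limma, nor did any of all genes (0%), and the smallest adjusted p of the 34 was 0.739. NOP58, TSR1 and NHP2 had an unadjusted p under 0.05, with differences of -0.16, -0.17 and -0.12. These 3 are 8.82% of the 34 genes, near the 6.50% of all genes. DDIT4 was above 9.0 in 3 of 5 of these arrays at 8 h and in 2 of 4 at 4 h. At 24 h against 4 h in DMSO, 13 of 34 genes lay above 0, against 55.1% of all genes, with a median of -0.01, and 0 of 34 and 0% of all genes passed. The change of the silymarin effect had a median of 0.03 for 8 h minus 4 h, of -0.003 for 24 h minus 8 h and of 0.02 for 24 h minus 4 h. limma called 0 of 34 genes and 0% of all genes in each of these 3 interactions and in the F-test over the 6 groups, and 0 of the 34 had an unadjusted p under 0.05 in any of them.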

How the data were processed

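Each sample's total RNA was measured on 1 Affymetrix array of the Human Gene 1.0 ST type. The deposited values are on the log2 scale. Per the submitters' processing notes, the authors ran RMA and oligo, whose versions are not given. RMA subtracts background, gives the probes of all arrays a common distribution and combines probes, so a shift shared by most genes would be largely removed. The array medians of the deposited values still ran from 7.04 to 7.18. A build for the array annotation is not given in the sources used here.

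Of 28869 probe sets, 19302 had 1 gene symbol, 1729 had several and 7838 had none in the platform annotation. The highest-mean probe set of each gene was kept, which gave 18274 genes. A single limma model (version 3.58.1, R 4.3.3; lmFit and eBayes) estimated 6 group means from the 24 arrays, with 18 residual and 5.04 prior degrees of freedom. Tests were two-sided, with Benjamini-Hochberg adjustment over all genes and a threshold of 0.05. The fit was checked on the deposited values with known changes added. Arrays on the sides of DDIT4 at 9.0 were described by medians, ranges and counts of genes without overlap.

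The members and lists were chosen with earlier results of these data known. All 34 measured genes are accounted for. Values in every array are given for the gene with the largest SD in each role, the 3 with the smallest p in each silymarin comparison and the 3 at each end of the DDIT4 differences, and further genes named in counts were chosen after their values were seen. The arrays' number limits the precision. Promoter sequences are RefSeq's, on GRCh38.p14. Python 3.11.15 and matplotlib 3.10.9 made the figures.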

Additional observations from a re-analysis of the deposited data

Results flagged for a closer look

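In 56 sets of 4 or 5 replicates, from 13 genes and the mean of the 34 genes, a single array stood far from its labelled group in 7. The rule flags about 1 in 20 independent sets by chance. The 13 genes were picked by their values in these data and vary together, so the 2 rates cannot be compared. DMSO replicate 4 at 8 h was low for NOP58, 10.95 against 11.10 to 11.14, and for PES1, 9.32 against 9.49 to 9.54. Silymarin replicate 1 at 4 h, the 1 high-DDIT4 array of its group, was low for NOP16, 8.45 against 8.92 to 9.02. DMSO replicate 1 at 24 h was low for RRP9, 9.78 against 10.02 to 10.09. High values were those of DMSO replicate 5 at 8 h for POLR1B, 10.45 against 10.17 to 10.25, of DMSO replicate 2 at 4 h for DDX21, 10.79 against 10.64 to 10.66, and of silymarin replicate 3 at 4 h for RRP12, 9.92 against 9.80 to 9.81.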

How the results depend on the processing

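No limma setting called any of the 34 genes in any comparison. These settings were 3 normalizations, no dim genes, 2 other rules for probe sets, trend and robust variances, array weights, only the groups compared, the replicate block and leaving out each array in turn. Leaving out 1 array gave median differences of silymarin minus DMSO over the 34 genes from 0.01 to 0.08 at 4 h, 0.05 to 0.09 at 8 h and 0.02 to 0.11 at 24 h. The lowest values at 4 h and 24 h came without silymarin replicate 3 and the highest without silymarin replicate 1. The median difference between high-DDIT4 and other arrays stayed between -0.10 and -0.05 under all settings, time points by themselves included, and a DDIT4 limit of 8.5 or 9.5 divided the arrays as 9.0 did. The count of genes without overlap, 0 over all arrays, was 5 with only the 4 h arrays, 2 with only the 8 h arrays and 2 with only the 24 h arrays, each of which compares fewer arrays. For NPM1, the probe set with the highest SD gave -0.13. Same-numbered arrays had correlations of deviations from -0.14 to 0.43 over 10 pairs. Without differently numbered pairs beside them, these values do not settle whether the numbers mark pairs. The main fit did not take them as pairs, and the replicate block gave 0 genes called and medians of 0.04, 0.08 and 0.07 at 4, 8 and 24 h. Arrays with DDIT4 below 9.0 alone, and omission of the 2 arrays with the lowest mean, were chosen after seeing the data, and the second gave a median difference of -0.07.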

Other observations

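Partners and antagonists of MYC were read beside the assembly factors. MYCN, a relative of MYC that also promotes growth genes, went the other way from MYC, with its lowest, median and highest values at 9.72, 10.03 and 10.43 in the arrays with DDIT4 above 9.0 and at 10.04, 10.46 and 10.79 in those below, and it was lower in all 6 labelled groups. MXD1, which competes with MYC for the shared partner MAX and represses its targets, had 9.40, 9.57 and 9.79 in the high-DDIT4 arrays and 8.95, 9.19 and 9.42 in the others, and was higher in all 6 groups. MAX itself was higher in all 6, with medians of 8.55 and 8.38. MXD4, MXI1 and MNT differed by 0.16, 0.06 and 0.09 and did not keep one direction in the 6 groups. Within sides, the mean of the 34 genes had a Pearson correlation with MYCN of 0.0202 over the 10 high-DDIT4 arrays and of 0.595 over the 14 others, given as a description.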
